A study of Mus musculus with 22 samples.

Results

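Tap1, Tapbp, Pdia3 and B2m, 4 genes of MHC class I peptide loading, were followed in mouse liver after an injection of interferon-gamma. They were chosen by name for their place in the pathway and not by a rule on their measured values. Earlier results of these data were known when they were chosen. Each was read from probe sets that the platform's probe table assigns to that gene alone, and where a gene had several, the probe set with the highest mean over all arrays stood for it. They make up 4 of the 8251 genes tested.

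The arrays came from SOCS1-/-IFNg-/- and IFNg-/- mice, so that both genotypes lacked the Ifng gene and the only interferon-gamma was the injected protein, with SOCS1 missing in addition in the first. Livers were taken 0.5, 1, 2, 4, 12, 16, 24 and 48 h after 4 µg of recombinant interferon-gamma in 100 µl, 4 and 12 h after 100 µl of phosphate-buffered saline (PBS), and without injection. Each genotype had 1 array per condition, 22 in all, with no replicates; strain, age and sex of the mice, and whether a sample was a single mouse or a pool, are not given in the labels used here. Values are log2 expression as deposited, so a difference of 1 is a doubling.

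MHC class I molecules show peptides from inside the cell to CD8 T cells. Cytosolic peptides, many of them cut by the proteasome, are pumped into the endoplasmic reticulum by the transporter made of Tap1 and Tap2. There the peptide loading complex, in which tapasin (Tapbp) bridges the transporter and an empty class I molecule and the oxidoreductase ERp57 (Pdia3) is bound to tapasin, helps a heavy chain paired with the light chain beta-2-microglobulin (B2m) to take up a fitting peptide. Interferon-gamma is a known inducer of this pathway through interferon regulatory factors among others, and SOCS1 is a feedback inhibitor of the receptor's kinases. Hepatocytes carry little class I protein at rest compared with leukocytes.

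The targeted genes did not go against the labels. Socs1 lay between 6.57 and 7.02 on the SOCS1-/-IFNg-/- arrays and between 6.68 and 9.21 on the IFNg-/- arrays, highest at 2 h, and Ifng lay between 2.19 and 2.61 and between 2.18 and 2.52. The liver marker Alb lay between 13.11 and 13.35 on all arrays. Correlations between arrays ran from 0.966 to 0.996, and 0 pairs were identical. The SOCS1-/-IFNg-/- array at 4 h stood apart: its median correlation with the other arrays was 0.972. Its 3′ minus 5′ difference for the actin control, a measure of RNA integrity, was 0.33, the lowest of all. A low value of this difference is not a sign of RNA degradation. Genes called at 4 h are also given without that array.

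Tap1, the transporter subunit that binds ATP and peptide together with Tap2, gave the widest response of the 4 genes. In SOCS1-/-IFNg-/- livers it measured 6.59, 7.23, 8.19, 9.32, 7.78, 7.41, 6.62 and 6.57 at 0.5, 1, 2, 4, 12, 16, 24 and 48 h after interferon-gamma, against 6.34 and 6.95 at 4 and 12 h after PBS and 6.46 untreated. In IFNg-/- livers it measured 6.43, 7.40, 8.40, 7.87, 7.51, 7.03, 6.70 and 6.33 at the same times, against 6.64, 6.49 and 6.35. From 1 to 16 h every interferon array of either genotype was above all controls, the highest at 4 h in SOCS1-/-IFNg-/- livers and at 2 h in IFNg-/- livers, and by 48 h both lay within or just below the control range. The range of Tap1 over the 22 arrays, 2.99, was wider than that of 99.4% of the genes.

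**Figure D1:**
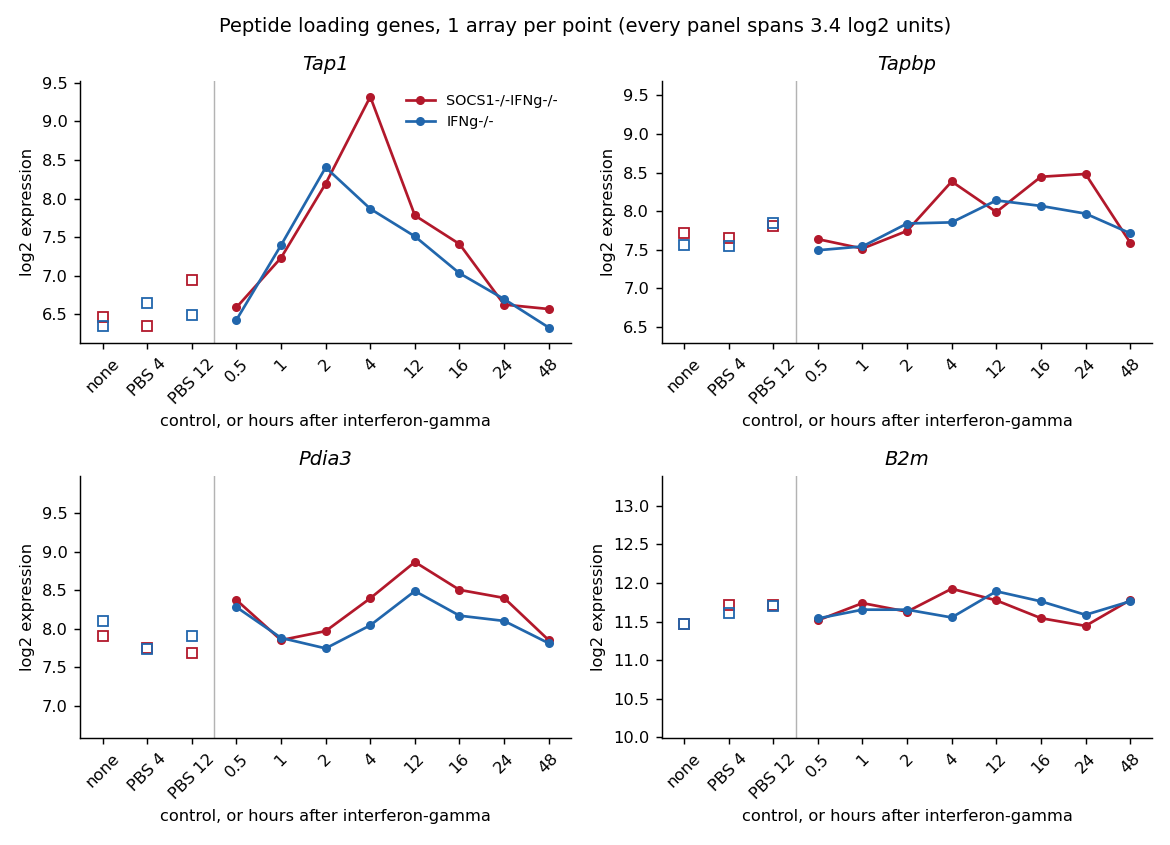
Log2 expression (y axis) of the 4 genes on every array, with SOCS1-/-IFNg-/- livers in red and IFNg-/- livers in blue; open squares are untreated and PBS livers, filled circles are hours after interferon-gamma, spaced evenly, and every panel spans the same number of log2 units. Tap1 reaches 9.32 in SOCS1-/-IFNg-/- livers and 8.40 in IFNg-/- livers, Pdia3 is highest at 12 h in both, and B2m stays between 11.44 and 11.93.

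A limma fit with condition and genotype as additive terms compared both arrays of a time with the 6 control arrays, with p-values adjusted over all genes. Tap1 rose at 2 h by 1.76 ± 0.23 (SE; 3.39-fold, adjusted p = 0.000716), at 4 h by 2.05 ± 0.23 (4.15-fold, adjusted p = 0.000218) and at 12 h by 1.11 ± 0.23 (2.15-fold, adjusted p = 0.0279). Of all genes, 1.66% passed the threshold of 0.05 in either direction at 2 h, 5.03% at 4 h and 1.42% at 12 h. Tap1 was the only member called at 2 h and at 4 h, and at 12 h it was called with Pdia3. At 1 h the difference was 0.77 ± 0.23 (adjusted p = 0.531), where 0.158% of genes passed, and at 16 h it was 0.68 ± 0.23 (adjusted p = 0.356), where 0.448% passed.

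Without the SOCS1-/-IFNg-/- array at 4 h the Tap1 difference at that time was 1.37 and still passed (adjusted p = 0.00132), as did that against PBS of the same hour, 1.42 (adjusted p = 0.00468). Set against the PBS arrays of the same hour, Tap1 was higher by 2.10 ± 0.28 at 4 h (adjusted p = 0.00155; 1.36% of genes passed) and by 0.92 ± 0.28 at 12 h (adjusted p = 0.377; 0.109% passed). The call at 12 h was lost without the untreated pair of arrays (adjusted p = 0.0971), and without the SOCS1-/-IFNg-/- array at 12 h (1.07, adjusted p = 0.402) or the IFNg-/- array at 12 h (1.14, adjusted p = 0.0984). Since each condition had 1 liver sample per genotype, these p-values measure the spread between arrays around the additive fit.

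In the order of the means of both genotypes, Tap1 stood highest at 4 h (8.59), followed by 2 h (8.30), 12 h (7.64), 1 h (7.31) and 16 h (7.22), with the controls and the remaining times between 6.40 and 6.72. Of the steps between neighbours in that order, only that between 2 and 12 h exceeded 2 times the standard error of a difference between conditions, 0.28. Sorting brings neighbours close and picks the ends as extremes, so these steps do not test whether conditions differ. The genes whose pattern over the 22 arrays was most like Tap1 were Ifi47 (Pearson r = 0.97), Igtp (0.96), Gbp7 (0.96), Ifi204 (0.96) and Icam1 (0.95). Ifi47, Igtp and Gbp7 encode interferon-induced GTPases, Ifi204 an interferon-induced nuclear protein and Icam1 an adhesion molecule; all of these values share the same arrays and the same normalization.

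A second Tap1 probe set, 162278_r_at, did not show the response. It lay between 5.17 and 5.70 on all arrays, and its difference from controls was 0.0090 at 2 h, -0.057 at 4 h and 0.040 at 12 h (SE 0.09 each), against 1.76, 2.05 and 1.11 for the probe set 103035_at. The suffix r marks probe sets for which the manufacturer relaxed its rules of probe choice, and its place in the transcript was not examined here.

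Upstream sequence was printed for the 3 genes whose behaviour differed most, Tap1, Pdia3 and B2m, to set some known motifs beside the measured responses. The sequences are RefSeq's on GRCm38.p6, plus strand, and end at the base before the gene's annotated start. Both strands were searched for the interferon-stimulated response element ISRE (GAAA, any 2 bases, GAAA), a kappaB site (GGGAC followed directly by TTTCC) and the CCAAT box. The endoplasmic reticulum stress element was searched as CCAAT, any 9 bases and CCACG, so that each match also holds a CCAAT box, and capitals mark the matches. The Tap1 window is chr17:34187331-34187555, 225 bases, cut where the annotation of Psmb9 begins, an immunoproteasome gene that runs the other way.
Tap1: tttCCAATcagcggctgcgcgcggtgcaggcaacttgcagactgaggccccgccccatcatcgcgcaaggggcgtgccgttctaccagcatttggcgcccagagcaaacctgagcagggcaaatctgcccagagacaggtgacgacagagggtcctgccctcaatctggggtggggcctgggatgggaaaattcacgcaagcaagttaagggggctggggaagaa
It held a CCAAT box 222 bases before the start and no ISRE or kappaB match in these letters. Of 32851 windows of 250 bases upstream of mouse genes, 2.98% held an ISRE match, 0.14% the kappaB site and 33.85% a CCAAT box.

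B2m, the light chain shared by all classical class I molecules, has its upstream window of 250 bases at chr2:122147437-122147686.
B2m: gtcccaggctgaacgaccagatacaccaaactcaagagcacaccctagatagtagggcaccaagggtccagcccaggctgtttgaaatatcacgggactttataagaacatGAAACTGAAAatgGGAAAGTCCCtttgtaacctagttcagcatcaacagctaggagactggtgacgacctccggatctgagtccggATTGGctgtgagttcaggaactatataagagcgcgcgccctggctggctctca
It held an ISRE match 139 bases before the start, a kappaB match on the other strand 126 bases before it and a reversed CCAAT box 53 bases before it. It was the only one of the 4 windows with an ISRE or kappaB match.

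B2m gave the smallest response of the 4 genes, and whether the motifs bear on any response was not tested. In SOCS1-/-IFNg-/- livers it measured 11.52, 11.74, 11.63, 11.93, 11.78, 11.54, 11.44 and 11.78 from 0.5 to 48 h after interferon-gamma, against 11.71 and 11.71 after PBS at 4 and 12 h and 11.46 untreated. In IFNg-/- livers it measured 11.54, 11.65, 11.65, 11.55, 11.89, 11.76, 11.59 and 11.76, against 11.61, 11.70 and 11.47. Interferon and control arrays overlapped in both genotypes, and the untreated array was the lowest control in each.

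The largest B2m difference from controls, at 12 h, was 0.22 ± 0.09 (adjusted p = 0.293), and that at 4 h was 0.13 ± 0.09 (adjusted p = 0.511). Against PBS of the same hour the values were 0.08 ± 0.11 at 4 h and 0.13 ± 0.11 at 12 h. All steps between neighbouring conditions were within 2 standard errors (0.11 each). The ends of that sorted order, 11.83 at 12 h and 11.47 untreated, lay further apart than that. Its range of 0.48 was wider than that of 52.4% of the genes. Without the IFNg-/- array at 4 h, the SOCS1-/-IFNg-/- array alone differed from controls by 0.33 and passed (adjusted p = 0.0349), in a fit where the lone array is assumed to vary like the rest. The genes most like B2m over the 22 arrays, Ube2e1 (r = 0.86), Acadl (0.82), Nono (0.82), Nsmce4a (0.81) and Rtraf (0.80), included none of the other 3 members, whose r with B2m was 0.44 for Tap1, 0.15 for Tapbp and 0.04 for Pdia3.

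Pdia3 is the thiol oxidoreductase of the loading complex and also folds other glycoproteins with calnexin and calreticulin. Its window of 250 bases is chr2:121413652-121413901, with 75.6% G and C.
Pdia3: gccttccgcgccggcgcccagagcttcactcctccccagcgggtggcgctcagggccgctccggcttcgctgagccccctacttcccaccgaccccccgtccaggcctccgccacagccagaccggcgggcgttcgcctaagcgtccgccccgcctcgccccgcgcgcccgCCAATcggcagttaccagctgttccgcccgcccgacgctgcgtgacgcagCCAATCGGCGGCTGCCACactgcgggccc
Capitals mark a CCAAT box 79 bases before the start and an 18-base stretch, starting 29 bases before it, that follows the stress element in all but its last letter. That open form, with the last G left free, was found in 0.32% of the windows and the full element in 0.113%.

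In SOCS1-/-IFNg-/- livers Pdia3 measured 8.37, 7.85, 7.97, 8.40, 8.87, 8.50, 8.40 and 7.85 from 0.5 to 48 h, against 7.75 and 7.69 after PBS at 4 and 12 h and 7.91 untreated. In IFNg-/- livers it measured 8.28, 7.88, 7.75, 8.05, 8.49, 8.17, 8.10 and 7.81, against 7.73, 7.90 and 8.09. Both genotypes were highest at 12 h, and both were also above every control at 0.5 h and back among the controls at 1 h.

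Pdia3 rose at 12 h by 0.83 ± 0.11 (1.78-fold, adjusted p = 0.00111). Against PBS of the same hour it rose by 0.88 ± 0.14 (1.84-fold, adjusted p = 0.0169), and it was the only member to pass in that comparison. At 0.5 h the difference was 0.48 ± 0.11 (adjusted p = 0.369), at a time when 0 genes passed in limma and 478 had an unadjusted p under 0.05. At 4, 16 and 24 h it was 0.37, 0.49 and 0.40 (adjusted p = 0.0722, 0.0879 and 0.206). The call at 12 h was lost without the SOCS1-/-IFNg-/- array at 12 h, where the IFNg-/- array alone gave 0.69 (adjusted p = 0.0831) and 0.74 against PBS (adjusted p = 0.536).

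In the order of conditions, 12 h (8.68) stood above 16 h (8.34) by more than 2 standard errors of a difference (0.14), and the neighbours 16, 0.5, 24 and 4 h, between 8.34 and 8.22, did not differ beyond it. The genes most like Pdia3 were Fxyd5 (r = 0.85), Ilf2 (0.83), Grina (0.83), Grwd1 (0.82) and Irf3 (0.81). With the endoplasmic reticulum chaperones Hsp90b1 and Pdia4 its r was 0.74 and 0.65, and with Hspa5, the chaperone BiP, 0.09. With other folding genes of that compartment it was 0.41 for Calr, 0.25 for Canx, 0.21 for Pdia6 and -0.08 for P4hb. With Tap2 and the immunoproteasome subunit Psmb10 it was 0.66 each.

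Tapbp encodes tapasin, which holds the complex together and edits the peptide. Its upstream window of 250 bases (chr17:33919228-33919477, plus strand) held 2 reversed CCAAT boxes, 248 and 165 bases before the start, and no other match. On the probe set with the highest mean, 102689_at, it measured 7.64, 7.51, 7.74, 8.38, 7.99, 8.45, 8.48 and 7.59 in SOCS1-/-IFNg-/- livers from 0.5 to 48 h, against 7.66 and 7.81 after PBS at 4 and 12 h and 7.71 untreated. In IFNg-/- livers it measured 7.49, 7.54, 7.84, 7.85, 8.14, 8.07, 7.97 and 7.71, against 7.55, 7.84 and 7.56. From 4 to 24 h every interferon array was above all controls of its genotype.

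The differences from controls were 0.43, 0.38, 0.57 and 0.54 at 4, 12, 16 and 24 h (SE 0.13 each), and no time passed in limma (adjusted p = 0.0671, 0.207, 0.0768 and 0.131). All neighbours in the order of conditions were within 2 standard errors (0.16 each). The ends of that sorted order, 8.26 at 16 h and 7.53 at 1 h, lay further apart than that. The genes most like Tapbp were Cyba, a subunit of the phagocyte NADPH oxidase (r = 0.93), Mvp (0.92), Tspo (0.90), Pkm (0.90) and the immunoproteasome subunit Psmb8 (0.89).

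The other probe sets of Tapbp moved together with it, with r between 0.80 and 0.85, but by different amounts. The probe set 100154_at measured 7.06, 7.12, 7.46, 8.64, 8.99, 8.25, 8.41 and 7.54 in SOCS1-/-IFNg-/- livers, against 7.14 and 7.54 after PBS and 6.96 untreated, and 7.13, 6.93, 7.42, 7.50, 8.08, 8.15, 8.10 and 7.28 in IFNg-/- livers, against 6.82, 7.48 and 6.98. In a fit of all 10833 probe sets it rose at 4 h by 0.92 ± 0.19 (adjusted p = 0.0106), at 12 h by 1.38 ± 0.19 (adjusted p = 0.00129), at 16 h by 1.05 ± 0.19 (adjusted p = 0.0189) and at 24 h by 1.10 ± 0.19 (adjusted p = 0.0279). In that fit 4.57%, 1.04%, 0.388% and 0.157% of probe sets passed at those times. The calls at 4 and 12 h were lost without the SOCS1-/-IFNg-/- array of that hour, where the IFNg-/- array alone gave 0.45 at 4 h (adjusted p = 0.367) and 1.04 at 12 h (adjusted p = 0.10).

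Against PBS of the same hour, 100154_at was higher by 1.09 ± 0.23 at 4 h (adjusted p = 0.0327; 1.24% of probe sets passed), or by 0.63 without the SOCS1-/-IFNg-/- array (adjusted p = 0.353), and by 1.02 ± 0.23 at 12 h (adjusted p = 0.235; 0.0831% passed). The probe set 162104_f_at, whose suffix f marks probes shared by similar sequences, gave 0.28 at 4 h and 0.30 at 12 h (adjusted p = 0.0821 and 0.139) and passed at no time. Whether Tapbp is called after interferon-gamma therefore depended on the probe set and, at 4 and 12 h, on the SOCS1-/-IFNg-/- array.

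**Figure D2:**
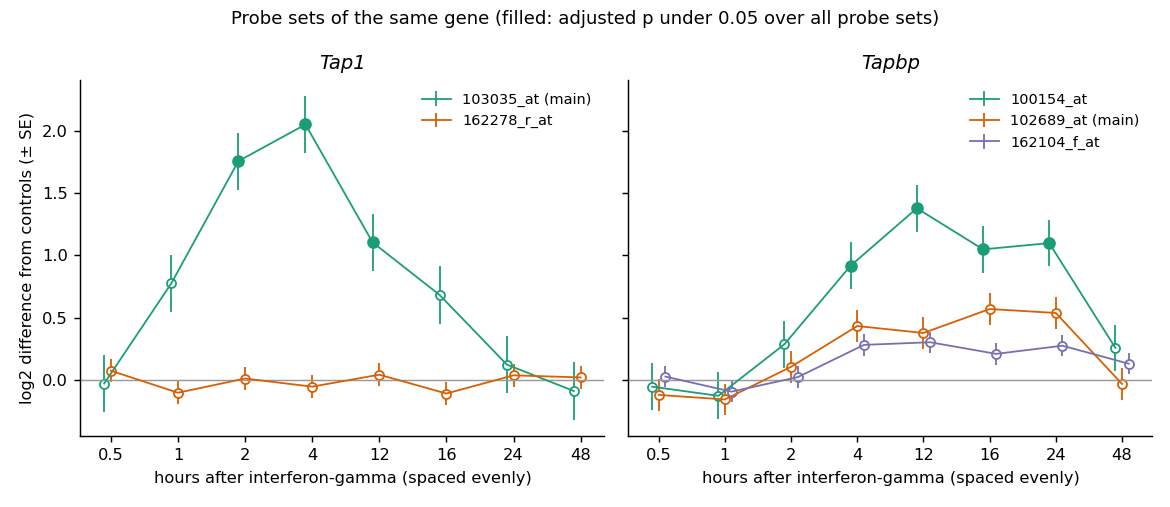
Log2 difference from the 6 control arrays (y axis, ± SE of the limma fit over all probe sets) at each hour after interferon-gamma (x axis, spaced evenly) for every probe set of Tap1 and Tapbp; filled points have an adjusted p under 0.05. The Tap1 probe set 103035_at reaches 2.05 and 162278_r_at stays near 0, and for Tapbp the probe set 100154_at reaches 1.38 while the other 2 stay at or under 0.57.

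The members differed in when they were highest. Tap1 was highest at 2 and 4 h, Pdia3 at 12 h and Tapbp from 4 to 24 h, and at 48 h the 4 differences from controls lay between -0.09 and 0.16, with 0 members called (0.0121% of genes passed). Tap1 and Tapbp had r = 0.43 over the 22 arrays, Tap1 and Pdia3 0.27, and Tapbp and Pdia3 0.60. At 0.5, 1, 16 and 24 h no member was called, with 0%, 0.158%, 0.448% and 0.17% of genes passing. At an unadjusted p under 0.05 there were 1, 1, 3 and 2 members, beside 478, 370, 697 and 815 of the 8251 genes. The median difference of the 4 members was 0.40 at 4 h and 0.60 at 12 h, against -0.03 over all genes at both times.

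**Figure D3:**
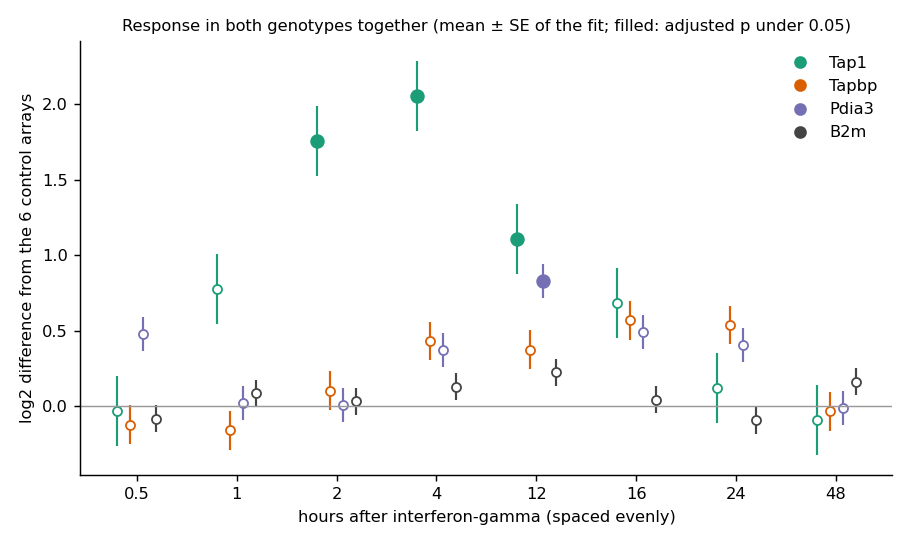
Log2 difference from the 6 control arrays (y axis, mean of both genotypes ± SE of the limma fit) of the 4 genes at each hour after interferon-gamma (x axis, spaced evenly); filled points have an adjusted p under 0.05. Tap1 passes at 2, 4 and 12 h and Pdia3 at 12 h.

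The PBS arrays at 12 h were set against the other 4 controls, the untreated and PBS 4 h arrays. The PBS 4 h livers were injected as well, so injection, hour and liver cannot be told apart here. On the probe sets standing for the members none was called there in limma, where 0.0606% of genes passed. An unadjusted p under 0.05 was found for 0 members, beside 578 of the 8251 genes. Tap1 differed by 0.27 ± 0.25, Tapbp by 0.21 ± 0.14, B2m by 0.14 ± 0.09 and Pdia3 by -0.08 ± 0.12. The Tapbp probe set 100154_at differed by 0.54 ± 0.20 (limma over all probe sets, unadjusted p = 0.0164, adjusted p = 0.604). Tapbp 162104_f_at differed by 0.04 ± 0.09 and Tap1 162278_r_at by 0.18 ± 0.10. Psmb8, the inducible proteasome subunit encoded beside Tap1 and Tap2, did pass, a rise of 1.49 ± 0.22 (adjusted p = 0.0211). It measured 8.07 at 12 h after PBS in SOCS1-/-IFNg-/- livers, against 6.77 at 4 h after PBS and 6.56 untreated, and 7.82 in IFNg-/- livers, against 6.32 and 6.16.

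The effect of SOCS1 was examined as the difference SOCS1-/-IFNg-/- minus IFNg-/- within each of the 11 conditions. Over all pairs no member passed, with 0.218% of genes passing: the mean difference was 0.20 ± 0.13 for Tap1, 0.12 ± 0.07 for Tapbp, 0.10 ± 0.05 for Pdia3 (adjusted p = 0.580; unadjusted 0.0499) and 0.01 ± 0.04 for B2m. In the 3 control pairs alone the differences were 0.09 ± 0.24, 0.07 ± 0.14, -0.13 ± 0.09 and 0.03 ± 0.08 for the same genes, with 0 members called and 0.0121% of genes passing. An unadjusted p under 0.05 was found for 0 members there, beside 373 of the 8251 genes. The other probe sets did not pass in limma either. Over all pairs Tapbp 100154_at gave 0.28 ± 0.10 (unadjusted p = 0.0156), Tapbp 162104_f_at 0.06 ± 0.05 and Tap1 162278_r_at 0.11 ± 0.04 (unadjusted p = 0.0204). In controls they gave 0.12 ± 0.19, -0.03 ± 0.09 and 0.18 ± 0.08 (unadjusted p = 0.0406 for the last).

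Tap1 was higher in SOCS1-/-IFNg-/- livers in 7 of 11 pairs. After interferon-gamma its differences were 0.16, -0.16, -0.21, 1.45, 0.27, 0.38, -0.07 and 0.24 from 0.5 to 48 h, against -0.30 and 0.46 after PBS at 4 and 12 h and 0.12 untreated. The 4 h pair stood alone, at 2.74-fold, and the others lay within the spread of the control pairs. Pdia3 was higher in 8 of 11 pairs: its differences were 0.09, -0.03, 0.22, 0.35, 0.38, 0.33, 0.30 and 0.04, against 0.02, -0.21 and -0.18, so that the pairs from 2 to 24 h were all above the control pairs.

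Tapbp differed by 0.14, -0.03, -0.10, 0.53, -0.15, 0.38, 0.51 and -0.12, against 0.10, -0.04 and 0.15, and B2m by -0.02, 0.09, -0.03, 0.37, -0.12, -0.22, -0.14 and 0.02, against 0.10, 0.01 and -0.01. On this probe set, 102689_at, Tapbp was higher in SOCS1-/-IFNg-/- livers at 4, 16 and 24 h, and B2m was higher at 4 h and lower at 12, 16 and 24 h. The Tapbp probe set 100154_at gave another pattern, with differences of -0.07, 0.19, 0.04, 1.14, 0.92, 0.10, 0.31 and 0.25 from 0.5 to 48 h, against 0.32 and 0.06 after PBS at 4 and 12 h and -0.02 untreated. There the pairs at 4 and 12 h stood above the control pairs, and that at 16 h did not.

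**Figure D4:**
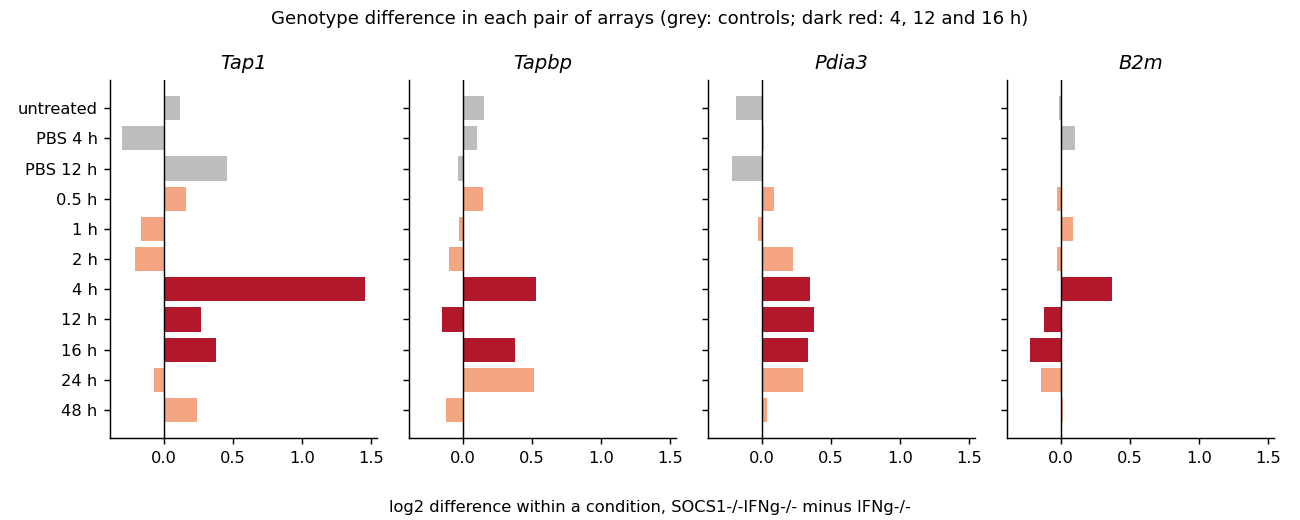
Log2 difference SOCS1-/-IFNg-/- minus IFNg-/- (x axis) in each pair of arrays for the 4 genes, with control pairs in grey, pairs at 4, 12 and 16 h in dark red and other interferon pairs in light orange. The Tap1 bar at 4 h, 1.45, is the longest, and the Pdia3 bars from 4 to 24 h lie between 0.30 and 0.38.

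Whether the genotype difference was larger at 4, 12 and 16 h than in the other 8 pairs was tested with limma on the pair differences, and no member passed, with 0.267% of genes passing. That window was chosen with earlier results of these data known, so its p-values are not an independent test. The excess was 0.67 ± 0.21 for Tap1 (adjusted p = 0.266), 0.32 ± 0.11 for Pdia3 (adjusted p = 0.276), 0.17 ± 0.15 for Tapbp and 0.01 ± 0.11 for B2m. At an unadjusted p under 0.05 there were 2 members, beside 760 of the 8251 genes. On 100154_at the Tapbp excess was 0.58 ± 0.17 in the fit of all probe sets (adjusted p = 0.233). The 4 h pair alone against the other 10 gave 1.37 ± 0.24 for Tap1 (adjusted p = 0.00355, 3.36% of genes passing), 0.44 ± 0.21 for Tapbp (adjusted p = 0.253), 0.41 ± 0.13 for B2m (adjusted p = 0.0997) and 0.25 ± 0.20 for Pdia3 (adjusted p = 0.471). That test rests on the SOCS1-/-IFNg-/- array that stood apart from the others and treats its pair as varying like the rest. The 4 h pair is also part of the window chosen with earlier results known. For the 12 and 16 h pairs the excess was 0.30 for Tap1 and 0.32 for Pdia3 (adjusted p = 0.531 and 0.295), with 0.533% of genes passing.

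In the same 4 h test the transcription factor Irf1 had an excess of 2.74. The immunoproteasome subunits Psmb9, Psmb8 and Psmb10 had an excess of 1.34, 1.27 and 0.78. Irf1 measured 10.73 at 4 h in SOCS1-/-IFNg-/- livers, against 7.71 in IFNg-/- livers, while at 2 h it measured 10.38 and 10.56. The Tap1 values had the same order at both times, higher in SOCS1-/-IFNg-/- livers at 4 h and lower at 2 h.

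Genes that work beside the 4 members were counted in lists chosen by function, with earlier results of these data known. Of 9 partners of peptide loading 7 were measured and 1 was called at any time: Tap2, the other transporter subunit, rose at 12 h by 0.65 ± 0.14 (adjusted p = 0.0315), with 7.35 in SOCS1-/-IFNg-/- livers and 6.63 in IFNg-/- livers, against 6.20 to 6.53 on the control arrays; without the SOCS1-/-IFNg-/- array at 12 h the value was 0.33 and the call was lost (adjusted p = 0.876). Against PBS of the same hour at 12 h Tap2 was higher by 0.49 ± 0.17 and did not pass (limma, adjusted p = 0.490). Of all genes, 1.42% passed at 12 h against the 6 controls and 0.109% against PBS. The lectin chaperone Canx lay between 7.71 and 7.97 on all arrays. Calr, its soluble counterpart, read only between 2.82 and 3.30 on a scale that ran from 1.73 to 13.5, so its probe set gave little signal to compare. The median of the list at 12 h was 0.06, against -0.03 over all genes.

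Of 26 class I heavy chains and related genes 16 were measured, and at 12 h 2 were called, H2-K1 by 0.36 ± 0.08 (adjusted p = 0.0380) and H2-D1 by 0.36 ± 0.08 (adjusted p = 0.0434). These classical heavy chains are near-identical in sequence and had r = 0.98 over the arrays, so their probe sets may read each other's transcripts. Both calls were lost without either array at 12 h: H2-K1 gave 0.31 and H2-D1 0.35 without the SOCS1-/-IFNg-/- array (adjusted p = 0.623 and 0.509), and 0.41 and 0.37 without the IFNg-/- array (adjusted p = 0.0776 and 0.136). Without the untreated pair both gave 0.36 (adjusted p = 0.0827 and 0.0971), without the PBS 4 h pair 0.31 and 0.32 (adjusted p = 0.119 and 0.128), and without the 2 h pair both gave 0.36 (adjusted p = 0.0551 and 0.0555). H2-D1 alone was also lost, at 0.36, without the 0.5 h pair (adjusted p = 0.0572) or the 24 h pair (adjusted p = 0.0569). The list's median at 12 h was 0.00, and no member of it passed at another time. Of all genes, 1.42% passed at 12 h. Against PBS of the same hour at 12 h 0 of the 16 passed in limma. There 2 had an unadjusted p under 0.05, beside 583 of the 8251 genes.

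The peptide supply list, of which 11 of 12 genes were measured, holds the immunoproteasome and its activator. At 4 h 3 were called, Psmb9 by 1.39, Psmb8 by 1.04 and Psmb10 by 0.73 (adjusted p = 0.00278, 0.00986 and 0.0169), and at 12 h 4, Psmb8 by 1.83, Psmb9 by 1.59, Psmb10 by 1.28 and the activator subunit Psme1 by 0.92 (adjusted p = 0.000381, 0.00201, 0.000729 and 0.00356). At 16 h 3 were called and at 24 h 1, Psmb8 by 1.25. Of all genes, 5.03%, 1.42%, 0.448% and 0.17% passed at 4, 12, 16 and 24 h. The 4 h calls were lost without the SOCS1-/-IFNg-/- array at 4 h, where the values were 0.72, 0.40 and 0.34; at 12 h, without the SOCS1-/-IFNg-/- array, Psmb8 stayed called at 1.87 (adjusted p = 0.0161), while Psmb9, Psmb10 and Psme1 gave 1.31, 1.14 and 0.76 and did not pass (adjusted p = 0.134, 0.0505 and 0.206). In limma against PBS of the same hour 0 were called at 12 h, where 4 had an unadjusted p under 0.05, beside 583 of all 8251 genes. At 4 h 3 were called, where 1.36% of all genes passed. Those at 4 h were Psmb9 by 1.77, Psmb8 by 1.44 and Psmb10 by 1.09; without the SOCS1-/-IFNg-/- array at 4 h the values were 1.10, 0.81 and 0.70, and Psmb9 alone passed (adjusted p = 0.0330, 0.0707 and 0.229). Tap1 had r = 0.79 with Psmb9, its neighbour, and 0.47 with Psmb8, and Tapbp had 0.89 with Psmb8.

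Of 20 regulators of class I genes 13 were measured. Irf1, an activator of class I promoters, was called at 1, 2 and 4 h by 2.89, 3.43 and 2.17, and Irf8, which is expressed mainly in myeloid and B cells, at 2 and 4 h by 2.34 and 1.73. Irf9 rose at 2 h by 0.57, and Stat3 and Rela rose at 4 h by 0.68 and 0.59. Of all genes, 0.158%, 1.66% and 5.03% passed at 1, 2 and 4 h. Against PBS of the same hour at 4 h, 1 of the 13 regulators passed in limma, beside 1.36% of all genes. At 12 h 0 passed in limma and 2 had an unadjusted p under 0.05, beside 1097 of the 8251 genes. Without the SOCS1-/-IFNg-/- array at 4 h, Irf1, Irf8, Stat3 and Rela no longer passed at 4 h, with values of 0.80, 0.65, 0.53 and 0.34 (adjusted p = 0.105, 0.240, 0.0847 and 0.202). Of 26 genes of protein folding in the endoplasmic reticulum 25 were measured and 0 were called by limma in any comparison. At 12 h 3 had an unadjusted p under 0.05, a level reached by 1097 of the 8251 genes. The median of the list was 0.11, with 19 of 25 above 0, and Hsp90b1 differed by 0.43 and Hspa5 by 0.11.

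**Figure D5:**
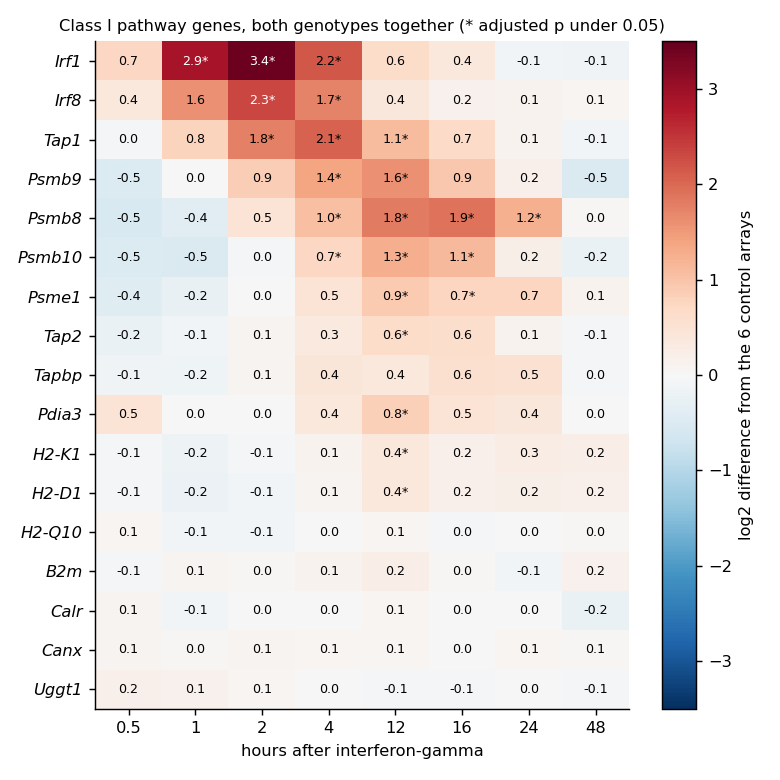
Log2 difference from the 6 control arrays (colour and printed value, mean of both genotypes) for the 4 members and 13 other class I pathway genes (rows) at each hour after interferon-gamma (columns); an asterisk marks an adjusted p under 0.05 in limma. Irf1, Irf8 and Tap1 are highest at 2 or 4 h, Psmb8, Psmb9, Psmb10, Psme1, Tap2 and Pdia3 at 12 or 16 h, and B2m, Canx and Calr stay within 0.22 of the controls.

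Whole liver was measured, so fewer cells of a type and less RNA per cell cannot be told apart. At 4 h, beside the Tap1 rise, 2 of 10 measured macrophage and Kupffer cell markers were higher, C1qb by 0.56 and Cd14 by 0.40, while the summed linear level of the list at 4 to 16 h ran from 1051 to 1563 in SOCS1-/-IFNg-/- livers and from 1195 to 1369 in IFNg-/- livers, against 1264 to 1466 and 1158 to 1346 on their control arrays. Of 9 hepatocyte markers Fgb was higher by 0.50 and Tat differed by -1.04 at 4 h. Of all genes, 5.03% passed at 4 h in either direction. Without the SOCS1-/-IFNg-/- array at 4 h the values were 0.36 for C1qb, 0.39 for Cd14, 0.33 for Fgb and -0.77 for Tat, and none of the 4 passed (limma, adjusted p = 0.379, 0.0916, 0.330 and 0.0905). At 12 h, where Pdia3 rose, no marker of the 11 lists passed, beside 1.42% of all genes. None of these markers was at 0, and their part in the results was not tested.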

How the data were processed

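RNA from mouse liver was measured on Affymetrix 3-prime arrays, 22 samples with 1 array each of biotin-labelled cRNA made from Trizol-extracted, RNeasy-cleaned total RNA, per the labels' protocols. The authors deposited log2 expression values per probe set, already normalized between arrays (array medians 5.64 to 5.71); the submitters' processing notes name affy, while how background was corrected, arrays normalized and probes summarized is not given in the sources used here. Depth does not apply to arrays, and their number limits the precision. The scale was read from the values, 1.73 to 13.5.

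Of 12488 probe sets 66 were controls; 10833 carried 1 gene symbol, 396 several and 1193 none, and those with several or none stayed out. The probe set with the highest mean stood for each of 8251 genes, 2073 of which had more than 1; 0 symbols needed updating against RefSeq. Tests were run with limma 3.58.1 in R 4.3.3, moderated and adjusted over all genes by Benjamini-Hochberg at 0.05. Responses came from an additive model of condition and genotype (10 residual degrees of freedom), and genotype effects from the 11 within-condition differences (8 or 9 degrees of freedom). The scripts were tested on simulated data. A further promoter motif that was searched is not reported here. The members, all gene lists and the window of pairs at 4, 12 and 16 h were chosen with earlier results of these data known. Named genes were the members, up to 4 called genes with the largest change per list at 4 h, at 12 h and between genotypes, and the 5 genes most correlated with each member; others named were chosen after their values were seen. Alternatives were moderated variance with a trend and robust fit, array weights, quantile normalization, equal medians, leaving out the lowest 40% of genes, all probe sets, other probe sets of a member, other control sets, other pair windows, and leaving out each pair of arrays; leaving out single arrays at 4 and 12 h was added after seeing the data.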

Additional observations from a re-analysis of the deposited data

Results flagged for a closer look

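In the test of genotype differences at 4, 12 and 16 h against the other 8 pairs, the neutrophil markers S100a8 and S100a9, which encode the subunits of calprotectin, were the marker genes whose effect differed between the groups of pairs: the excess in SOCS1-/-IFNg-/- over IFNg-/- livers was 1.06 ± 0.16 for S100a8 and 0.83 ± 0.13 for S100a9 (limma, adjusted p = 0.0149 for each). The other 8 of the 10 measured neutrophil markers did not pass, and 0.267% of all genes passed. S100a8 and S100a9 gave low signal, with medians of 4.32 and 4.24 over the arrays, against 8.39 for Csf3r of the same list. A linear sum over the list therefore weighs them little. The window of these 3 times was chosen with earlier results of these data known. The summed linear level of the list at 4 to 16 h ran from 661 to 736 in SOCS1-/-IFNg-/- livers and from 620 to 722 in IFNg-/- livers, against 657 to 734 and 666 to 688 on their control arrays. These hours include those at which Tap1 differed between the genotypes; the part of these markers in that difference was not tested.

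Tap1 itself differed between the genotypes at 4 h more than in the other 10 pairs, by 1.37 ± 0.24 (limma, adjusted p = 0.00355), and was higher in SOCS1-/-IFNg-/- livers in 7 of 11 pairs. The value rests on 1 pair of arrays, among them the array with the lowest median correlation with the others, 0.972. That pair lies in the window of 4 to 16 h, which was chosen with earlier results of these data known.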

How the results depend on the processing

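The rises of Tap1 at 2 and 4 h passed under every alternative on its probe set 103035_at, in each of the 10 fits without a pair of arrays, and without either 4 h array. On the probe set 162278_r_at the 4 h value was -0.057.

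The number of members called at 12 h (2) was 1 with a variance trend and robust fit, 1 with controls without the untreated arrays, 0 without the SOCS1-/-IFNg-/- array at 12 h and 1 without the IFNg-/- array at 12 h, and ran from 1 to 2 over fits lacking a pair of arrays. Without the IFNg-/- array at 4 h, the SOCS1-/-IFNg-/- array alone gave 2.74 for Tap1, 0.65 for Tapbp, 0.50 for Pdia3 and 0.33 for B2m. The number called at 4 h (1) ran from 1 to 2 over fits lacking a pair of arrays, with Pdia3 joining without the untreated pair (limma, adjusted p = 0.0494). At 1 h (0) it was 1, Tap1, with array weights and without either 4 h array, and ran from 0 to 1. At 16 h (0) it was 1, Tapbp, with controls without PBS 12 h, 2 without either 4 h array, and ran from 0 to 2. Against PBS it was 3 at 4 h without the IFNg-/- array at 4 h; at 12 h it was 2 without either 4 h array and 0 without the SOCS1-/-IFNg-/- array at 12 h, and ran from 1 to 2. For the genotype excess at 4 to 16 h (0) it was 1 with the 4 h pair alone.

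Counts over all genes moved more: from 5 to 47 at 1 h (13 in the main analysis), 86 to 420 at 2 h (137), 60 to 813 at 4 h (415), 18 to 187 at 12 h (117), 14 to 60 at 16 h (37), 7 to 27 at 24 h (14), 0 to 2 at 48 h (1), 23 to 536 at 4 h against PBS (112), 1 to 32 at 12 h against PBS (9), 1 to 23 for PBS at 12 h (5), 7 to 71 for genotype over all pairs (18), 0 to 27 in controls (1), 0 to 1 at 0.5 h (0) and 11 to 277 for the excess at 4 to 16 h (22). The cause of these changes was not tested. With 1 array per genotype and condition, the spread between livers of the same kind is not measured, and additive genotype and condition effects are assumed. Arrays were taken as normalized by the authors.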
